A study of Mus musculus with 4 samples.

Results

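The retinoblastoma family and the E2F factors it controls were followed over 4 Affymetrix mouse expression arrays of dermal fibroblasts, which make the collagen matrix of skin. The 10 genes were Rb1, Rbl1 and Rbl2 (the pocket proteins), E2f1, E2f2, E2f3, E2f7 and E2f8 (E2F factors), Tfdp1 (their dimerisation partner) and Lin9 (a subunit of the MuvB complex). They were selected by name together with the measured values of Rbl1, which was known to be higher in both deleted arrays, and they had 21 probe sets assigned to 1 gene, of 18193 genes on the array. The question of the study was which transcripts differ when Rbpj is deleted. Rbpj encodes RBP-J kappa, or CSL, the DNA-binding protein of the Notch pathway.

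The 4 groups had 1 array each. The first was labelled as in vitro deletion and had received an adenovirus carrying Cre recombinase, and its control had received an adenovirus carrying GFP. The third came from mice with a ColI Cre transgene and loxP sites in both Rbpj alleles, labelled as in vivo deletion, and its control had the loxP alleles without Cre. In which cells the ColI Cre transgene is active is not said in the labels. The background of all 4 was given as C57BL/6. How many animals or cultures went into an array, how old the animals were, and whether the in vivo cells had been cultured is not given in the sources used here. With 1 array per group no difference has a replicate check, and because the genes were chosen with these differences known, no test was made and all values are descriptions of these arrays.

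Pocket proteins bind E2F factors and hold the genes of DNA replication silent until cyclin-dependent kinases phosphorylate them. Rb1 mainly restrains the activators E2f1, E2f2 and E2f3. Rbl1 (p107) and Rbl2 (p130) pair with other E2F factors and with MuvB, the core of the DREAM repressor, Rbl2 mostly in resting cells and Rbl1 mostly in cycling ones. Rbl1, E2f1, E2f7 and E2f8 are themselves E2F targets, and E2f7 and E2f8 repress E2F targets without binding a pocket protein.

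The promoters show which member genes carry the short DNA words that these factors read. RefSeq promoter sequences (build GRCm38.p6), from 250 bases before to 50 bases after the annotated start, were found for 8 of the 10 genes, with 11 starts in all; Rb1 and Lin9 had no entry. Both strands were searched for the E2F words TTTCCCGC, TTTGGCGC, TTTCGCGC and TTTGCCGC, for TTTGAA (the CHR element that MuvB reads) and for TGGGAA (the core of the CSL site). The bases upstream of the start are printed 5′ to 3′ on the gene's strand, with the matched words, or their reverse complements, in capitals. The genes shown are those with the largest differences below, Rbl1, E2f7, E2f8 and Tfdp1 (the first of its 2 starts), and Rbl2, whose in vivo difference had the opposite sign.
Rbl1 (chr2:157204535-157204784, minus strand): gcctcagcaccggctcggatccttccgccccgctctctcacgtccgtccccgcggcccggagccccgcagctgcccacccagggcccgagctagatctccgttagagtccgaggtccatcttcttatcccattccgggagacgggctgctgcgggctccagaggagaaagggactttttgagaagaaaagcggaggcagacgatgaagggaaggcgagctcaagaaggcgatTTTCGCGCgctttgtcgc
E2f7 (chr10:110745189-110745438, plus strand): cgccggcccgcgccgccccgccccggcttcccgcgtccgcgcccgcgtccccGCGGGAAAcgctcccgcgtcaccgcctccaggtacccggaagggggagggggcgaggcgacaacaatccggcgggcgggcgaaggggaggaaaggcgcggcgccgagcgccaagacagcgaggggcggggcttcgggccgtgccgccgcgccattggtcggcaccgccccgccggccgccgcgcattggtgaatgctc
E2f8 (chr7:48881597-48881846, minus strand): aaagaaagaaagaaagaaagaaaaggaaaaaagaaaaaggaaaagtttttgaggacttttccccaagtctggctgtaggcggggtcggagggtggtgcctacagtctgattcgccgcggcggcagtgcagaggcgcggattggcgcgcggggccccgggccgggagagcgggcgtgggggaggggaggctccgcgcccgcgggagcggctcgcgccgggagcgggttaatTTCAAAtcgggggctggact
Tfdp1 (chr8:13338501-13338750, plus strand): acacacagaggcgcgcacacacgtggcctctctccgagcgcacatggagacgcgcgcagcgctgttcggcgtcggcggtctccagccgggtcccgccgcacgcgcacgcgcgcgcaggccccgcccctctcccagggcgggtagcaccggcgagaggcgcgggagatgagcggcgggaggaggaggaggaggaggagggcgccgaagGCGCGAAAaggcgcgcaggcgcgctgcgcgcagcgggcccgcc
Rbl2 (chr8:91069807-91070056, plus strand): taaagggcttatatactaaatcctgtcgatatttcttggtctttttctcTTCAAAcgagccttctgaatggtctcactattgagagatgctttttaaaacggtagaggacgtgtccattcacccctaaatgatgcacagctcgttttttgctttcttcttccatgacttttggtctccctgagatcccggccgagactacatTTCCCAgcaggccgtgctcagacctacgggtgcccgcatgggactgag
Rbl1 held the word TTTCGCGC beginning 18 bases before the start and no CSL or CHR word. E2f7 held the reverse complement of TTTCCCGC, beginning at base -198. In Tfdp1 the reverse complement of TTTCGCGC began at base -43. E2f8 had a CHR word at base -20 and none of the E2F words. Rbl2 had a CHR word at base -201 and a CSL core at base -48, again with none of the E2F words. Among the remaining genes, E2f3 carried all 3 kinds within 70 bases upstream of its first start. In all, 5 of the 8 genes had an E2F word, 4 a CHR word and 2 a CSL core, and no word overlapped one of another kind. Counted by gene in the same way, the shares were 4.83% for the E2F words, 13.8% for TTTGAA and 26.6% for TGGGAA. These are shares of the 8828 genes analysed (defined below) with an entry, which leave out E2f2. Counted by start, over all 32851 promoters of this length, the shares were 2.26%, 17.9% and 25.6%. A match is a stretch of letters and was not tested as a binding site. Whether the annotated starts, that of E2f1 among them, are the ones used in these cells was not tested. A window without a word therefore does not show that the gene's promoter lacks it.

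**Figure D1:**
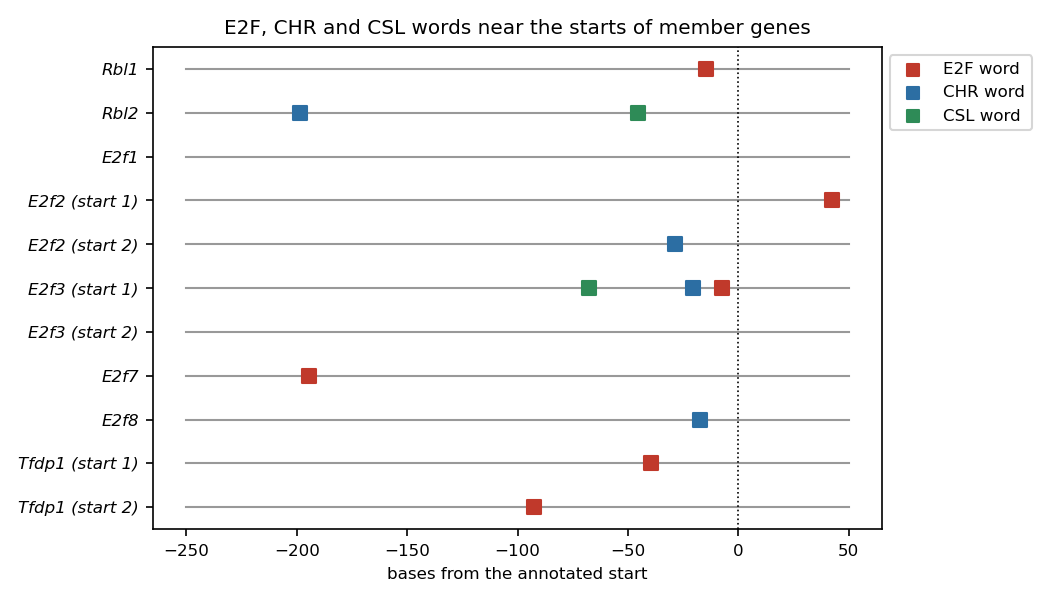
Positions of E2F (red), CHR (blue) and CSL (green) words, in bases from the annotated start, for the 11 annotated starts of 8 member genes. The E2F word of Rbl1 and the CHR word of E2f8 lie within 20 bases upstream of the start. The windows of the annotated E2f1 start used here and of the second E2f3 start hold none. Whether these starts are used in fibroblasts was not tested.

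Values are log2 expression after quantile normalization of the deposited values over the 4 arrays, and a gene is read from its brightest probe set. A gene was analysed where the mean of that probe set was at or above log2 5.28, the 40th percentile over genes. This left 10916 genes, with 8 members, each of them at or above the cutoff on all 4 arrays. E2f2 and Lin9 fell under it. The label of deletion was checked on Rbpj, whose 3 probe sets differed by -1.34, -1.11 and 0.10 (deleted minus control, log2) in vitro and by -0.83, -0.10 and -0.49 in vivo. Where these probe sets lie relative to the deleted exons was not used here. All 11 fibroblast markers read were above the cutoff on all 4 arrays. In vitro 9 were higher and 2 lower in the deleted array, with 0 past 1.5-fold, and in vivo 3 were higher and 8 lower, with 2 at least 1.5-fold lower. Of all genes analysed, 42.5% were higher in vitro and 46.4% in vivo, and 11.2% were at least 1.5-fold lower in vivo. Col1a1 was at 13.72 in the in vivo deleted array and 13.57 in its control and Pdgfra at 10.42 and 11.02, and Lum differed by -1.06. Measures of RNA quality differed within both pairs. The excess of 3′ over 5′ signal (log2) in the in vitro deleted array and its control was, by transcript, Gapdh 0.02 and 1.003, Actb 0.40 and 1.11, and Pcx 2.01 and 3.16, whereas Tfrc went the other way at 1.45 and 0.96. In the in vivo deleted array and its control the values were Gapdh 0.13 and 0.14, Actb 0.15 and 0.41, Pcx 0.83 and 1.10, and Tfrc 1.54 and 1.25.

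Among pocket proteins, Rbl1 was higher with the deletion in both systems. Its probe set 1424156_at read log2 7.29 in the in vitro deleted array and 6.21 in its control, and 6.83 in the in vivo deleted array and 5.67 in its control. Both deleted arrays lay above both controls. The differences were 1.09 (2.13-fold) in vitro and 1.16 (2.23-fold) in vivo, at percentiles 99.4 and 98.0 of the differences over all genes analysed. Of those genes, 6 (0.055%) were at least 2-fold higher in both systems, a count the choice of Rbl1 had used.

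The Rbl1 excess rests on this probe set. The other 3 read between log2 3.63 and 4.43 on every array, under the cutoff, and their in vitro differences lay between -0.15 and 0.06. In vivo they lay between 0.04 and 0.26. Taking the median over all 4 probe sets gave -0.02 in vitro, and 0.21 in vivo. Which Rbl1 transcripts each probe set reads was not tested. Rbl1 also belongs to the 2726 genes with the longest spans, of which 1.25% were at least 2-fold higher in vitro, against 0.44% of the 2726 shortest. In vivo the order was reversed, at 2.24% of the longest and 3.23% of the shortest. The part of RNA quality and gene span in the Rbl1 values was not tested.

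Rbl2 took opposite signs in the 2 systems. On probe set 1425981_a_at it read 6.78 in the in vitro deleted array and 6.52 in its control, and 5.77 in the in vivo deleted array and 6.53 in its control. On this probe set the controls of both systems were thus level, and the in vivo deleted array was the lowest of the 4. The differences were 0.26 in vitro and -0.76 in vivo (1.69-fold lower). Its second probe set, 1418146_a_at, showed 0.31 and -0.66 for the same comparisons, so both probe sets of the gene took the same pair of signs. On this second probe set the controls were not level, at 5.64 in vitro and 5.90 in vivo.

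Rb1 had the same signs at a smaller size. Probe set 1417850_at read 7.95 in the in vitro deleted array and 7.74 in its control, and 6.69 in the in vivo deleted array and 7.07 in its control. Both in vitro arrays lay above both in vivo arrays. The differences were 0.21 in vitro and -0.38 in vivo (1.30-fold lower). The other Rb1 probe set lay under the cutoff on every array, with differences of -0.12 and 0.04. Rb1 and Rbl2 were the only 2 of the 8 members higher in vitro and lower in vivo, a pair of signs shared by 20.4% of all genes analysed.

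The activators E2f1, E2f2 and E2f3 did not reach 1.5-fold in either system. E2f1, read by probe set 1431875_a_at, was at 7.73 in the in vitro deleted array and 7.84 in its control, and at 8.25 in the in vivo deleted array and 7.77 in its control. On this probe set the in vivo deleted array stood above the other 3, which lay close together. Its differences were -0.11 in vitro and 0.48 in vivo (1.39-fold higher), and probe set 1417878_at gave -0.45 and 0.54. On 1417878_at the in vitro control, at 6.76, lay near the in vivo deleted array, at 6.80. The remaining E2f1 probe set, 1447840_x_at, of a kind that can cross-hybridise, gave 0.01 and 0.08.

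E2f3 on probe set 1434564_at was slightly higher in both deleted arrays, at 8.04 in the in vitro deleted array and 7.81 in its control, and at 8.19 in the in vivo deleted array and 7.96 in its control. The difference was 0.23 in each system. Its other probe set gave 0.04 in vitro and 0.17 in vivo. E2f2 was near background: its brighter probe set read 4.97 and 5.10 in the in vitro deleted and control arrays and 5.47 and 5.15 in the in vivo deleted and control arrays. The in vivo deleted array alone passed the cutoff for E2f2, so the in vivo difference of 0.33 is not exact.

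The repressors E2f7 and E2f8 were at least 2-fold higher in vivo and less so in vitro. E2f7, with a single probe set, read 7.46 in the in vitro deleted array and 7.12 in its control, and 7.78 in the in vivo deleted array and 6.58 in its control. The differences were 0.34 (1.27-fold) and 1.20 (2.30-fold). E2f8 on probe set 1436186_at read 6.67 in the in vitro deleted array and 6.37 in its control, and 7.14 in the in vivo deleted array and 6.12 in its control. On these probe sets of both genes the 4 arrays had the same order, with the in vivo deleted array highest, the in vitro deleted array second and the in vivo control lowest.

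The E2f8 differences were 0.30 (1.23-fold) in vitro and 1.02 (2.03-fold) in vivo. With the deposited values in place of the normalized ones the in vivo difference of E2f8 was 0.96, under 2-fold. Its dimmer probe set, 1444319_at, gave 0.51 and 0.38 with 3 of its 4 values under the cutoff. There the order differed, with the in vivo control second and the in vitro control lowest. The difference between the systems was not tested for E2f7 or E2f8, since each system had 1 array a group.

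Tfdp1, which pairs with E2F factors so that they can bind DNA, was higher in both deleted arrays. Its single probe set read 9.73 in the in vitro deleted array and 8.85 in its control, and 10.20 in the in vivo deleted array and 9.57 in its control. Both deleted arrays lay above both controls. The differences were 0.88 (1.84-fold) and 0.63 (1.54-fold). Lin9, the MuvB subunit, stayed under the cutoff on both of its probe sets: the brighter one read 3.97 and 3.80 in the in vitro deleted and control arrays and 3.96 and 3.76 in the in vivo deleted and control arrays, too dim for a size.

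**Figure D2:**
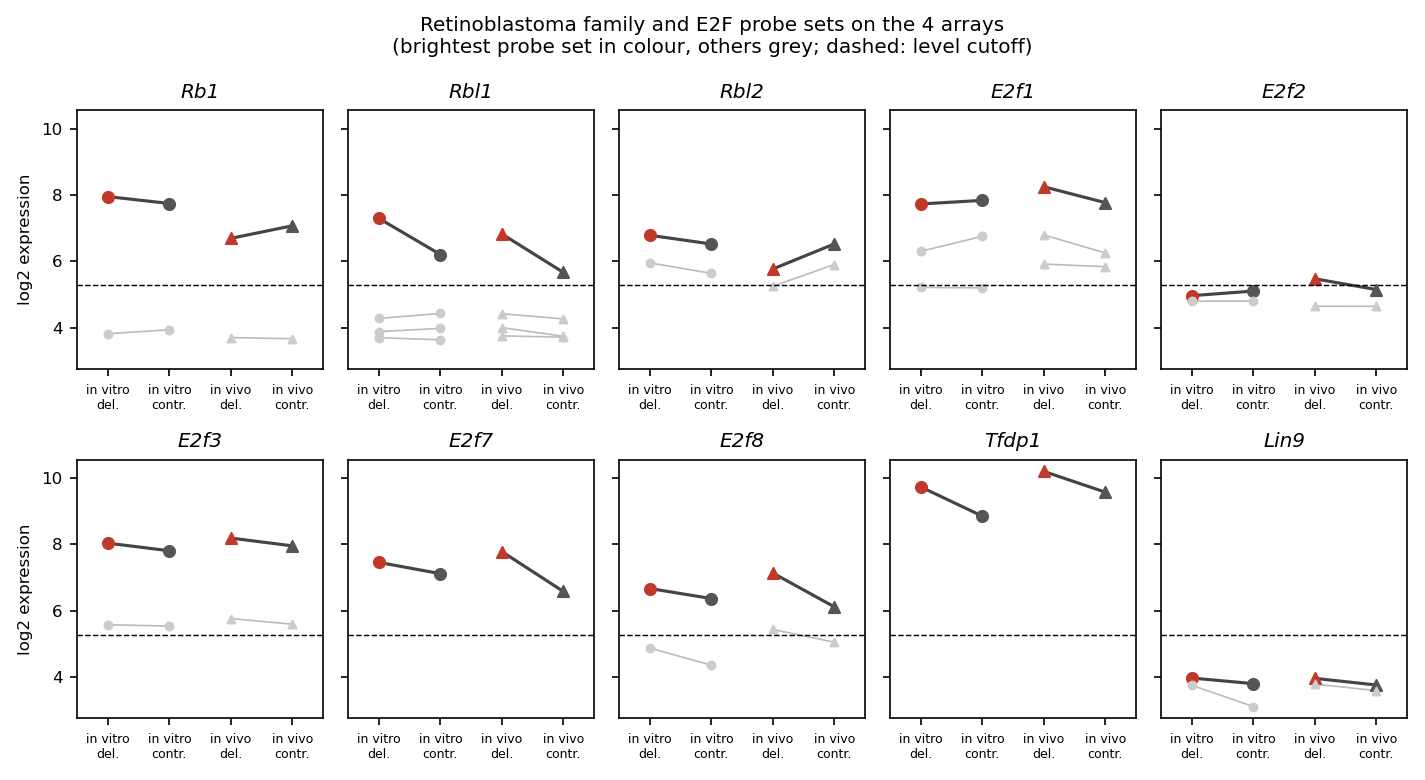
Log2 expression of every probe set of the 10 genes on the 4 arrays, with deleted arrays in red and controls in dark grey for the brightest probe set, other probe sets in light grey, and the level cutoff of 5.28 dashed. Rbl1 and Tfdp1 slope down from deleted to control in both systems, Rb1 and Rbl2 slope up in vivo, and the other Rbl1 probe sets lie under the cutoff.

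In vitro, 1 of the 8 analysed members (Rbl1) was at least 2-fold higher, against 0.788% of all genes analysed, and 0 were at least 2-fold lower, against 1.15%. At 1.5-fold, Tfdp1 joined it, making 2 higher, where 5.1% of all genes passed, and 0 were lower, against 9.66%. In vivo 3 members (Rbl1, E2f7 and E2f8) were at least 2-fold higher, against 2.81% of all genes, and 0 were 2-fold lower, against 3.81%. At 1.5-fold, 4 were higher, against 8.02%, and Rbl2 was lower, against 11.2%. Since these contrasts chose the members, nothing is read from the counts. Rbl1 and Tfdp1 were the 2 members at least 1.5-fold higher in both systems, as were 0.678% of genes. The median difference over the 8 was 0.28 in vitro and 0.55 in vivo, and over all genes analysed it was -0.06 and -0.03.

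**Figure D3:**
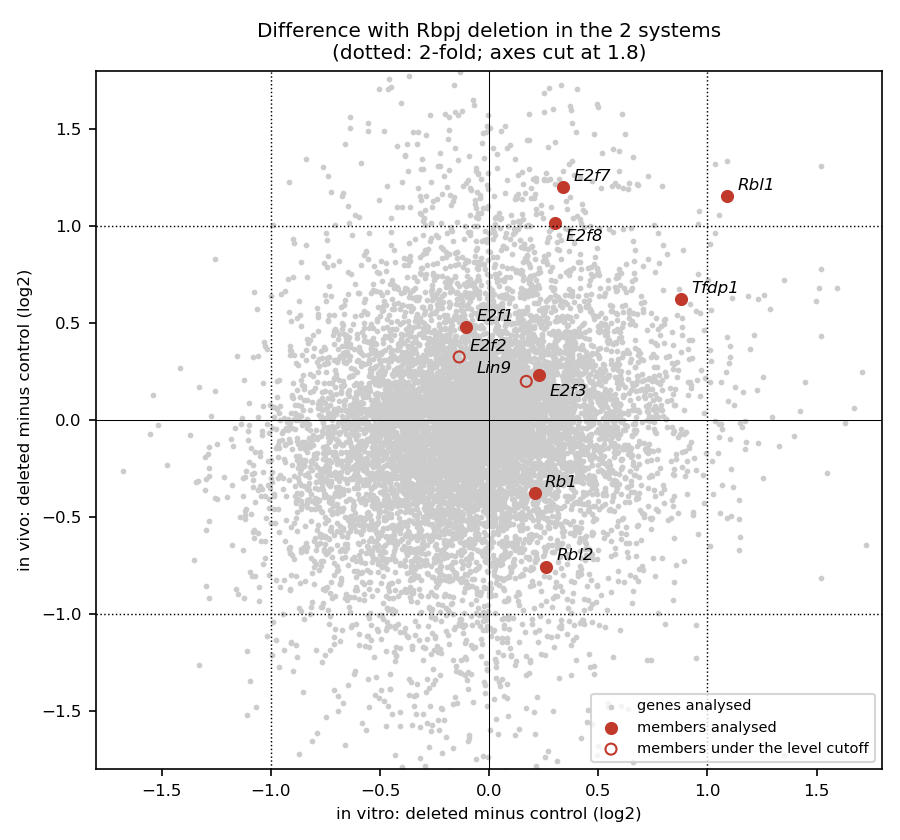
Deleted minus control (log2) in vitro (x axis) and in vivo (y axis) for the genes analysed (grey) and the members (filled red, or open where under the level cutoff), with dotted lines at 2-fold. Rbl1 lies beyond 2-fold on both axes, E2f7 and E2f8 in vivo only, and Rb1 and Rbl2 lie right of 0 and below it; 142 genes lie outside the plotted range.

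Levels of the members between the 2 systems differed with no constant direction. Over the brightest probe sets of all 10 genes the in vivo deleted array was the highest in 6 (E2f1, E2f2, E2f3, E2f7, E2f8 and Tfdp1) and the lowest in 2 (Rb1 and Rbl2). The in vitro deleted array was the highest in the other 4, and neither control was the highest in any. Between controls, in vitro minus in vivo on the same probe sets, Tfdp1 differed by -0.72, Rb1 by 0.67, Rbl1 by 0.54 and E2f7 by 0.53. Rbl2 differed by less than 0.01 on its brightest probe set and by -0.27 on its other. In these levels the system cannot be told apart from the array batch.

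The genes whose pattern was nearest to that of Rbl1 over the 4 arrays, by Euclidean distance after removing each gene's mean, were Tpbg (distance 0.15 on the log2 scale), Noct (0.31), Baz1a (0.32), Nup153 (0.33) and Ddias (0.34). Tpbg, a surface glycoprotein gene, differed by 1.03 in vitro and 0.97 in vivo. E2f7 was the nearest member, ranked 77 of the genes analysed, and Rbl2 the farthest at rank 6029. With 4 arrays the ranking is a description only.

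Other E2F and MuvB genes were read from a list of 12, of which 10 were analysed. In vitro 2 of the 10 were at least 1.5-fold higher (5.1% of all genes) and 0 lower (9.66% of all genes), with a median difference of 0.24. E2f6, a repressor that acts without pocket proteins, was at 0.80 and Tfdp2, the second dimerisation partner, at 0.59. In vivo 3 were at least 2-fold higher (2.81% of all genes) and 0 lower (3.81% of all genes), with a median of 0.35: Mybl2, the MYB factor that joins MuvB for mitotic genes, at 1.69, Foxm1, which activates the same genes, at 1.02, and the MuvB subunit Lin54 at 1.003, its control under the cutoff at 4.97. Lin54 was at 0.46 in vitro. E2f4 and E2f5, the usual partners of Rbl1 and Rbl2, were at -0.13 and -0.01 in vitro and at 0.20 and 0.31 in vivo.

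Among the cyclins, kinases and the phosphatase that act on pocket protein phosphorylation, 9 of 10 were analysed. In vitro 0 were at least 1.5-fold higher, against 5.1% of all genes, and 1 lower, against 9.66%. This was Cdk6 at -0.69, while Cdk2 was at 0.31 and Ccnd3 at 0.27. In vivo 4 were at least 1.5-fold higher, against 8.02% of all genes, and 0 lower, against 11.2%, with Ccnd1 (cyclin D1) at 1.40, Cdc25a, a phosphatase that activates the kinases, at 0.99, and Ccna2 (cyclin A2) at 0.93. The CDK inhibitor list had 6 of 7 analysed, of which 2 were at least 1.5-fold lower in each system, where 9.66% of all genes were in vitro and 11.2% in vivo, and 0 higher. Cdkn1c (p57) was at -0.86 in vitro and -2.46 in vivo, Cdkn2d (p19) at -0.91 in vitro and 0.36 in vivo, and Cdkn2b (p15) at -0.25 and -1.02. Cdkn1b (p27) was at 0.02 in vitro and -0.37 in vivo.

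E2F target genes of the G1/S step make the proteins of DNA replication. In vivo 30 of 30 analysed genes were higher in the deleted array, against 46.4% of all genes analysed. Of the 30, 26 passed 1.5-fold upward, against 8.02% of all genes, and the median was 1.04. Mcm10 (1.49) and Cdc6 (1.44), which prepare replication origins, and Rrm2 (1.47), a subunit of ribonucleotide reductase, were the farthest from 0. In vitro 23 of the 30 were higher, against 42.5% of all genes analysed, and 7 lower. Upward of 1.5-fold were 3 (Rrm1 at 0.66, Rrm2 at 0.62 and Mcm4 at 0.61), where 5.1% of all genes passed, and the median was 0.15. The difference between the systems was not tested. Of 29 genes of this list with a promoter entry, 13 (44.8%) held one of the E2F words, against 4.83% of analysed genes with an entry.

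Mitotic genes of the MuvB and FoxM1 programme, 26 analysed, were 26 of 26 higher in vivo, against 46.4% of all genes analysed. Of the 26, 23 passed 1.5-fold upward, against 8.02% of all genes. The median was 0.89, and the farthest from 0 were the spindle kinases Ttk (1.59), Nek2 (1.49) and Aurka (1.29). In vitro 8 were higher and 18 lower, where 42.5% of all genes were higher, and 2 were at least 1.5-fold lower (Cdca8 at -0.76 and Cenpa at -0.74), where 9.66% of all genes were. Kif23 was at -0.57. The in vitro median of the list was -0.12, close to that of all genes analysed (-0.06), and it was -0.03 with loess normalization. The CHR word was in 18 of the 23 of these promoters with an entry (78.3%), against 13.8% of analysed genes. In the in vivo deleted array every analysed gene of both target lists was higher, as were 6 of the 8 analysed members, while 2 (Rb1 and Rbl2) were lower. Rbl1 was at 1.09 in vitro, where the medians of the G1/S and mitotic lists were 0.15 and -0.12. A link between the members and the lists was not tested.

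**Figure D4:**
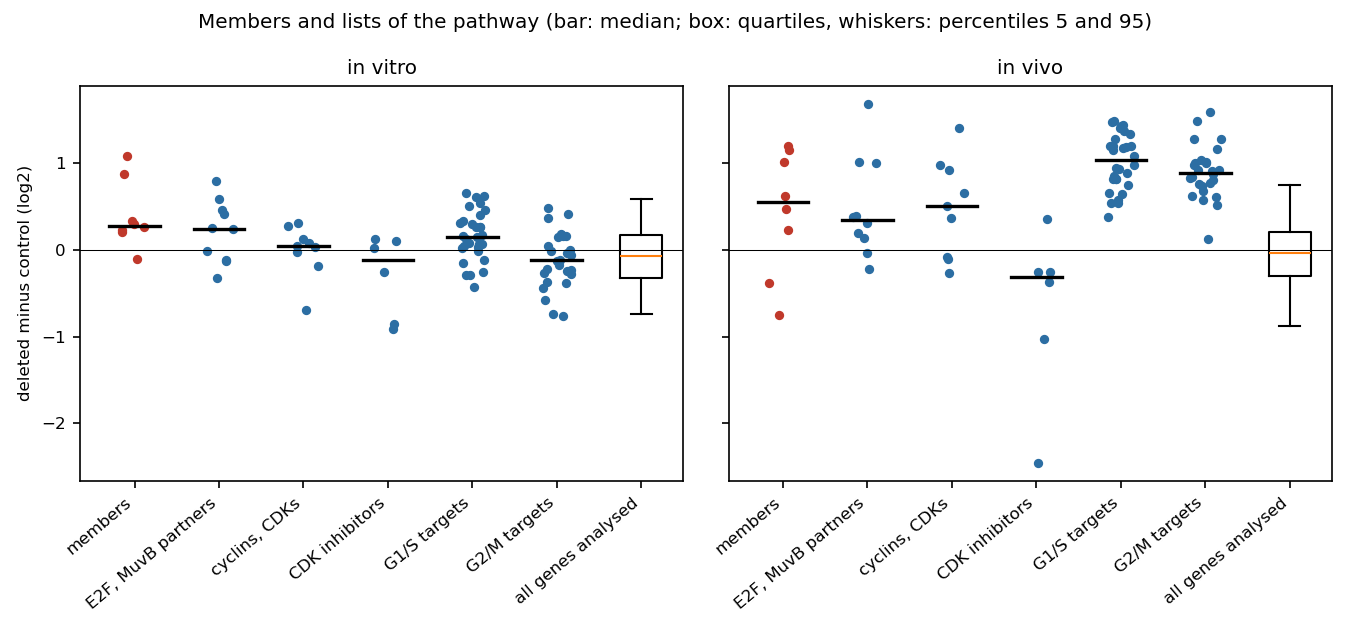
Deleted minus control (log2) for the analysed members (red) and 5 lists of the pathway (blue, 1 point a gene, bar at the median), beside a box for all genes analysed, in vitro (left) and in vivo (right). The G1/S and mitotic lists lie wholly above 0 in vivo, with medians of 1.04 and 0.89, and on both sides of 0 in vitro.

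Over the whole table, the 422 analysed genes outside the members with an E2F word had a median in vivo difference of 0.06, and 16.4% of them were at least 1.5-fold higher, against 7.33% of the 8399 genes without one. In vitro these shares were 6.64% and 4.98%. For the CHR word, 11.7% of 1211 genes with it and 7.14% of 7610 genes without it were at least 1.5-fold higher in vivo, and 5.2% and 5.03% in vitro. For the CSL core, 8.07% of 2342 genes with the word and 7.66% of 6479 genes without it were at least 1.5-fold higher in vivo, and 4.78% and 5.16% in vitro. These shares describe letters near annotated starts.

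Markers of keratinocytes and skeletal muscle moved with both comparisons, mostly higher in vivo and mostly lower in vitro. Of 11 keratinocyte markers analysed, 8 were at least 2-fold higher in the in vivo deleted array, against 2.81% of all genes analysed. Their summed level over 17 genes, taken without the level filter, was log2 12.89 there and 9.86 in its control. The filter used the mean over the 4 arrays, so a high value in the in vivo deleted array helped a marker enter the count. Dsp read 7.98 in that array and 3.23 in its control, and Lamb3 7.62 and 4.16, both controls under the cutoff. Nothing is therefore read from the count. Krt14 read 10.94 in the in vivo deleted array and 5.93 in its control, whereas Trp63 lay under or near the cutoff in both (5.19 and 5.64). Skeletal muscle markers were at least 2-fold higher for 8 of 10, against the same 2.81%, with a summed level of 11.84 in the in vivo deleted array and 9.80 in its control. This count has the same limit. Myh3, for example, read 7.77 in the in vivo deleted array and 5.42 in its control, but 4.02 and 4.72 in the in vitro deleted and control arrays. Macrophage markers summed to 8.76 and 9.06, with Ptprc at 4.02 and 4.42, and endothelial markers to 7.51 and 7.43, with Pecam1 at 4.92 and 4.85, for the in vivo deleted and control arrays. Ptprc and Pecam1 lay under the cutoff. At least 1.5-fold lower in vivo were 1 of 4 analysed macrophage markers (Lyz2 at -1.06) and 1 of 2 endothelial ones (Tek at -0.72), against 11.2% of all genes. None of the analysed markers of either list was 1.5-fold higher in vivo, against 8.02% of all genes. Vwf, an endothelial marker under the cutoff, was at 0.59. In vitro 9 of the 11 keratinocyte markers were lower and 2 higher, where 42.5% of all genes analysed were higher. At least 2-fold lower were 3 of them (Krt14 at -1.62, Krt17 at -1.30 and Krt5 at -1.03), against 1.15% of all genes. The summed level of the keratinocyte markers was 10.21 in the in vitro deleted array and 10.67 in its control. Of the 10 muscle markers 3 were at least 1.5-fold lower in vitro, against 9.66% of all genes, with a sum of 8.96 in the deleted array and 9.21 in its control. Macrophage and endothelial markers had 0 past 1.5-fold in vitro. The part of other cells in the values of the members and of the target lists was not tested in either system, and fewer cells of a type and less RNA per cell cannot be told apart in bulk RNA.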

How the data were processed

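RNA from 4 fibroblast samples was measured on 1-colour arrays. Biotin-labelled cRNA was made from oligo(dT)-primed cDNA of poly(A) RNA, per the labels' protocols, so signal depends on distance from the 3′ end. The deposited values are log2 expression for 45101 probe sets (2.87 to 13.79). The log2 scale was read from that range, and the authors' software and normalization are not given in the sources used here.

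Columns were quantile normalized (Python 3.11.15, numpy 2.4.6). The platform annotation named the probe sets, with 34945 assigned to 1 gene and symbols updated through RefSeq for 34741; the 932 with several genes were not named. Each gene took its probe set with the highest mean. Genes at or above the 40th percentile of that mean were analysed. Differences are deleted minus control within a system, and 2-fold and 1.5-fold counts are set beside all genes analysed. The procedure was checked on simulated data. The number of arrays limits the precision.

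The members and lists were chosen with earlier results of these data known. Named genes are all members, the 3 genes of each list with the largest absolute difference per comparison, the 5 genes nearest to Rbl1, Rbpj, and marker genes. Others in the text (E2f4 and E2f5) were named for their role, after their values were seen. Alternatives were the deposited values, loess within pairs (limma 3.58.1), centring, other level filters, an added pseudocount (15.3, the 20th percentile of linear values), the median of probe sets, leaving out _x_at and _s_at probe sets, and thresholds of 1.5-fold and 3-fold. The median of probe sets above the cutoff was chosen after seeing the data.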

Additional observations from a re-analysis of the deposited data

Results flagged for a closer look

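Of the 8 analysed members, 3 had opposite signs in the 2 systems (deleted minus control, log2), each system being 1 array a group, and the difference between systems was not tested. Among all genes analysed, 20.4% were higher in vitro and lower in vivo, the signs of Rb1 and Rbl2. The share with the signs of E2f1 was not computed, so nothing is read from the count. Rb1 was at 0.208 in vitro and -0.378 in vivo, Rbl2 at 0.262 and -0.756, and E2f1 at -0.107 and 0.479. The in vitro values are smaller than the median SD between probe sets of a gene in that comparison (0.28).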

How the results depend on the processing

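No paired analysis was possible because each group had 1 array and no result came from a test. The 8 analysed members kept their sign in each comparison under every alternative that gave a value. Under the median of all probe sets Rbl1 fell under the level filter (-0.02 in vitro, opposite in sign to 1.09, and 0.21 in vivo if kept), and under the 60th percentile filter (log2 6.92) Rbl1, Rbl2 and E2f8 did.

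The count of members at least 2-fold higher in vitro (1) was 0 under the 60th percentile filter, the added pseudocount (Rbl1 at 0.95), the median of all probe sets and the 3-fold threshold, and 2 at 1.5-fold. The same count in vivo (3) was 1 under the 60th percentile filter, the pseudocount (Rbl1 at 0.96) and the median of all probe sets (E2f8 at 0.70), 0 at 3-fold, and 2 with the deposited values or loess. Members 2-fold lower in vivo (0) numbered 1 at 1.5-fold.

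Genes at least 2-fold higher in vitro (86) numbered 248 with the median of all probe sets, 216 with the median of those above the cutoff, 557 at 1.5-fold and 13 at 3-fold. Genes 2-fold lower in vitro (125) numbered 77 with loess, 80 after centring, 80 with the pseudocount, 1054 at 1.5-fold and 2 at 3-fold. In vivo the higher genes (307) numbered 161 under the 60th percentile filter, 875 at 1.5-fold and 80 at 3-fold, and the lower genes (416) 1226 and 112 at these thresholds. The causes were not tested beyond the construction of each alternative. No median of the 5 pathway lists shifted by more than the typical SD between probe sets of a gene (0.28 in vitro, 0.17 in vivo). E2f2, Lin9 and the dim Rbl1 probe sets are limited by signal near background.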
